A study of Mus musculus with 16 samples.

Results

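The comparison described here is that of MKα3+ with MKα3− keratinocytes when both had been given laminin-332 (LN332), and its members are the 8 libraries, of 16 in the series, whose labels give LN332 as the treatment. MKα3− cells are immortalized mouse keratinocytes without the integrin α3 subunit, and MKα3+ cells are MKα3− cells in which human α3 was put back. Both lines were grown on collagen-coated dishes in low-calcium medium and received LN332 at 0.02 mg/mL, and RNA was taken after 16 to 24 h from 4 replicates a line. The other 8 libraries are the same lines, 4 replicates each, given an equal volume of vehicle (PBS with glycine and sodium azide), and they serve here to show which differences between the lines were also present without added LN332. Each genotype is a single line and whether it is a clone is not given in the sources used here, so that the effect of α3 and any other difference between the lines cannot be told apart. The labels do not say whether replicates were separate cultures, and p-values therefore measure the spread between these libraries, which may be technical.

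Integrin α3β1 is a laminin receptor of basal keratinocytes, and LN332, a trimer of laminin chains, is its main ligand in the epidermal basement membrane. The hemidesmosome integrin α6β4 binds the same ligand and anchors it to keratin filaments. From adhesions to LN332, α3β1 is known to signal through focal adhesion kinase, Src and ERK, and it has been studied for its part in keratinocyte migration, matrix assembly and protease production in wounds.

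The 8 libraries held between 21735708 and 29338370 counts, with a median of 26131372 in MKα3+ and 26751478 in MKα3− cells. Mouse *Itga3*, the targeted gene, was counted at 272, 314, 311 and 314 CPM (counts scaled to library size and TMM-normalized, given for replicates 1 to 4) in MKα3+ cells and at 315, 218, 317 and 221 CPM in MKα3− libraries. The lines overlapped at this gene, with a log2 difference (log2 fold change of MKα3+ over MKα3− cells) of 0.20 (SE 0.15, adjusted p of 0.349), and since the restored subunit is human the count does not check the labels. Reads of the human transcript may map in part to the mouse gene, so that the MKα3+ values can hold both. The first principal component of all 16 libraries, with 55.5% of the variance, separated the lines. On the second, with 11.8%, LN332-treated replicate 1 scored 41.6 in MKα3+ and 47.2 in MKα3− cells, against -27.9 to -11 in the other 6 LN332 libraries. In vehicle, MKα3+ replicate 1 and MKα3− replicate 4 scored 25 and 26.4. Of the 8 LN332 libraries, the 2 of replicate 1 also had the largest shares of *Rn45s*, the ribosomal RNA precursor (1.06% in MKα3+ and 1.42% in MKα3− cells, against 0.503% to 0.748%). Without both of them 3118 genes were called between the lines in place of 2987, and 2693 genes were common to both counts.

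Both lines expressed the keratinocyte markers chosen as a check, and markers of fibroblasts, endothelial cells and melanocytes were low. Markers on the immune cell and Merkel cell lists were not all low. The 12 measured keratinocyte markers summed to 13760 to 19650 CPM in MKα3+ and 12840 to 25890 CPM in MKα3− libraries. The 7 measured fibroblast markers of 10 summed to 27.5 to 43.7 and 22.2 to 35.6 CPM, and the 6 measured endothelial markers of 8 to 7.19 to 10.1 and 7.07 to 9.09 CPM. *Dcn*, *Lum*, *Thy1*, *Erg* and *Emcn* were not analysed here. The 7 measured immune cell markers of 10 summed to 124 to 416 CPM in MKα3+ and 79.2 to 131 CPM in MKα3− libraries. The highest sum was that of MKα3+ replicate 4, where *Lyz2*, the lysozyme of myeloid cells, was at 4.5, 47.1, 77.4 and 237 CPM in replicates 1 to 4 against 3.61, 28.6, 50.8 and 8.36 CPM in MKα3− libraries. The pan-leukocyte marker *Ptprc* was at 0.482 to 3.63 CPM in MKα3+ and 0.538 to 0.989 CPM in MKα3− libraries, and the T cell markers *Cd3e* and *Cd3g* were not analysed here. Of these 7 markers *Csf1r* and *Cd74*, a receptor of macrophages and the invariant chain of class II molecules, were called higher in MKα3+ cells, and *Csf1r* was at 30.6, 21.6, 29.4 and 60.9 and 18, 16.9, 18.8 and 18 CPM. The 2 measured melanocyte markers of 8 summed to 4.71 to 5.93 and 4.7 to 7.49 CPM. The 5 measured Merkel cell markers of 7 summed to 1910 to 2499 and 1087 to 1485 CPM, but *Krt8*, *Krt18* and *Krt20* among them are also simple epithelial keratins, and the defining genes *Atoh1* and *Chga* were not analysed here. In bulk libraries fewer cells of a type and less RNA per cell cannot be told apart.

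Under LN332, 2987 of 14474 genes (20.6%) were differentially expressed between the lines, 1696 (11.7%) higher and 1291 (8.92%) lower in MKα3+ cells. A gene is called here when its adjusted p is under 0.05 and its absolute log2 fold change over 0.5. The median log2 difference of all genes was 0.0062, and the median absolute log2 fold change of the called genes was 0.92. Large differences were more often higher than lower in MKα3+ cells, with 379 genes higher and 140 lower by a log2 fold change over 2, 70 and 30 over 4, and 25 and 10 over 5. In 2478 of the 2987 genes the 4 MKα3+ and 4 MKα3− libraries did not overlap, against 3837 (26.5%) of all genes tested.

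With vehicle in place of LN332, 18.5% of genes were called between the lines, 10.9% higher and 7.56% lower. Of the genes called under LN332, 809 were not called in vehicle. Their median absolute difference was 0.60 under LN332, and in vehicle it was 0.42 in the same direction. In vehicle 802 of the 809 had the same sign, 313 had an adjusted p under 0.05 with a log2 difference of at most 0.5, and 40 had an unadjusted interaction p under 0.05. The test of the difference itself, the interaction of line and LN332, called 0 genes in limma-voom, edgeR and DESeq2. At an unadjusted p under 0.05 the interaction held 164 genes (1.13%) in limma-voom, 168 in edgeR and 207 in DESeq2. A call under LN332 that is missing in vehicle therefore does not show that the line difference depended on LN332.

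**Figure D1:**
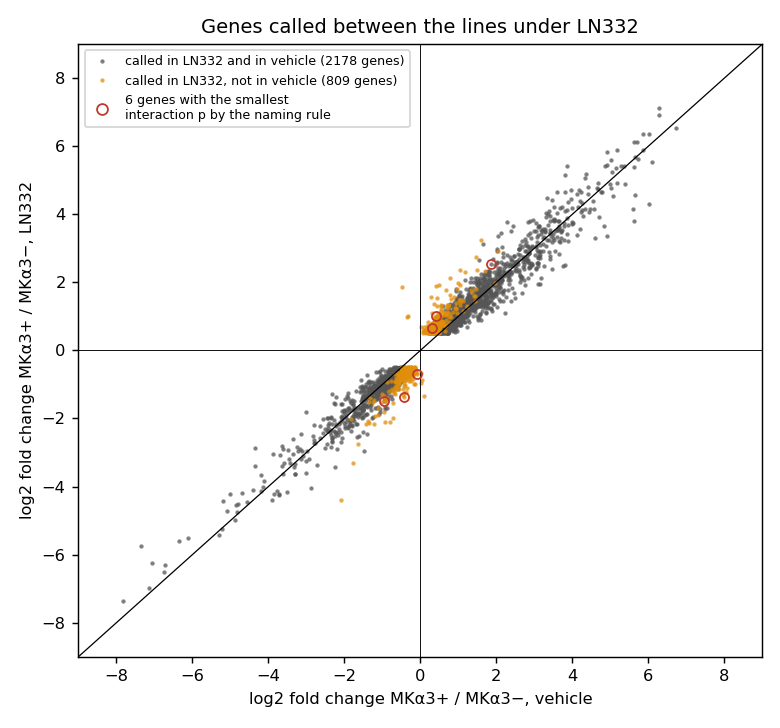
Log2 fold change of MKα3+ over MKα3− cells in vehicle (horizontal axis) and under LN332 (vertical axis) for the 2987 genes called under LN332, one point a gene, with the line of equal values. Points were chosen on the vertical axis; the 809 genes not called in vehicle lie mostly near the origin, and 802 of them share the sign of their vehicle value.

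Of the genes whose libraries did not overlap and whose mean log2 CPM was 1 or more, *Gatm*, *Sox11*, *Cavin3*, *Krt19* and *Rin3* had the largest excess in MKα3+ cells. *Gatm*, whose product catalyses the first step of creatine synthesis, was at 45.3, 48.2, 51.8 and 51 CPM in the 4 MKα3+ libraries and 0.504, 0.141, 0.215 and 0.929 CPM in the 4 MKα3− libraries. It was near absent in every MKα3− library, and the log2 difference was 7.13 (SE 0.45, adjusted p of 4.61e-09). *Sox11*, a SoxC transcription factor of progenitor cells, was at 75.8, 59.1, 61.4 and 65.3 CPM in MKα3+ and 1.4, 0.848, 0.467 and 1.37 CPM in MKα3− libraries, a log2 difference of 6.13 (SE 0.28, adjusted p of 1.07e-10). *Cavin3*, which codes for a protein of the caveolar coat, was at 188, 136, 168 and 183 CPM in MKα3+ and 2.75, 1.73, 1.76 and 4.5 CPM in MKα3− libraries, a log2 difference of 6.12 (SE 0.28, adjusted p of 1.07e-10). For these genes the lowest MKα3+ library was more than 10 times the highest MKα3− library. *Krt19*, a type I keratin of simple epithelia, was at 320.1, 268, 448 and 287 and 6.25, 3.57, 5.28 and 8.02 CPM, with MKα3+ replicate 3 above the others, and its log2 difference was 5.9 (SE 0.24, adjusted p of 4.81e-11). *Rin3*, which codes for an activator of the endocytic GTPase Rab5, was at 47.5, 47.9, 53.4 and 49.7 and 0.97, 0.636, 1.33 and 1.17 CPM, a log2 difference of 5.63 (SE 0.26, adjusted p of 1.15e-10). In GRCm38.p6 *Gatm* lies on chromosome 2, 122594473 to 122611277, *Sox11* on chromosome 12, 27334268 to 27342718, *Cavin3* on chromosome 7, 105480616 to 105482197, *Krt19* on chromosome 11, 100140810 to 100145926 and *Rin3* on chromosome 12, 102282840 to 102390854.

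The other 7 of the 12 largest excesses had log2 fold changes from 5.25 to 5.59. *Crmp1*, a mediator of semaphorin signalling, was at 74.3 ± 12.8 CPM in MKα3+ and 1.77 ± 0.406 CPM in MKα3− libraries (SD, n = 4 each). *Tubb2b*, a β-tubulin best known from neurons, was at 25.9 ± 7.95 and 0.62 ± 0.246 CPM. *Pcdh19*, a protocadherin gene on chromosome X, was at 26.4 to 60.5 and 0.503 to 1.41 CPM, so that its MKα3+ libraries differed among themselves by more than those of *Tcfl5*, a helix-loop-helix factor best known from testis, at 18.3 to 22.3 and 0.179 to 0.815 CPM. *Miga1*, whose protein sits on the mitochondrial outer membrane and acts in mitochondrial fusion, was at 18.8 ± 2.17 and 0.459 ± 0.17 CPM. *Abhd15* and *Moxd1*, which code for a hydrolase-fold protein and a monooxygenase, were at 30.8 ± 9.37 and 17.8 ± 1.79 CPM in MKα3+ cells and 0.684 ± 0.343 and 0.528 ± 0.361 CPM in MKα3− libraries.

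In the other direction *Dsc3*, *Akip1*, *Slc25a13*, *Lhfpl4* and *Sox2* had the largest deficits in MKα3+ cells. *Dsc3*, the desmosomal cadherin desmocollin 3 of basal keratinocytes, was at 58.9, 81, 150.4 and 40.8 CPM in the 4 MKα3− libraries and 0.562, 0.447, 0.739 and 0.187 CPM in the 4 MKα3+ libraries. The MKα3− libraries spread over more than 3 times among themselves, and the log2 difference was -7.36 (SE 0.95, adjusted p of 1.62e-05). *Akip1*, the gene of a protein that binds a subunit of protein kinase A, was at 37.3, 29.4, 26 and 33.1 CPM in MKα3− and 0.241, 0.203, 0.584 and 0.375 CPM in MKα3+ libraries, a log2 difference of -6.5 (SE 0.51, adjusted p of 4.95e-08). *Slc25a13*, which codes for citrin, the aspartate-glutamate carrier of mitochondria, was at 34.4, 51, 56.1 and 48.5 and 0.843, 0.528, 0.623 and 0.45 CPM, a log2 difference of -6.26 (SE 0.35, adjusted p of 1.08e-09). *Sox2*, a transcription factor of stem cells, was at 22.5, 29.8, 36.6 and 27.2 and 1.41, 0.852, 0.856 and 0.637 CPM, a log2 difference of -4.97 (SE 0.37, adjusted p of 2.75e-08). In each of these genes the highest MKα3+ library was far below the lowest MKα3− library. In GRCm38.p6 *Akip1* lies on chromosome 7, 109703678 to 109712186, and *Sox2* on chromosome 3, 34649995 to 34652461.

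The remaining deficits among the 12 largest were in *Lhfpl4*, *Pacs1*, *Casd1*, *Gjb5*, *Padi3*, *Slc50a1*, *Igf2bp3* and *H60c*, with log2 fold changes from -5.25 to -4.12. *Padi3*, a peptidylarginine deiminase of the upper epidermis and hair follicle, was at 168, 202, 231 and 173 CPM in MKα3− and 5.38, 12.7, 13 and 12.7 CPM in MKα3+ cells, with MKα3+ replicate 1 below the other 3. *Gjb5*, a connexin of stratified epithelia, was at 8.9 to 22.9 and 0.599 to 0.934 CPM. *H60c*, a skin ligand of the natural killer receptor NKG2D, was at 59.8 ± 19.8 and 3.33 ± 0.614 CPM (SD, n = 4 each). *Igf2bp3*, an RNA-binding protein of fetal tissues, was at 34.1 ± 2.26 and 1.98 ± 0.459 CPM, and *Pacs1*, a sorting protein of the trans-Golgi network, at 52.7 ± 5.47 and 2.41 ± 1.18 CPM. *Lhfpl4*, known as a partner of inhibitory synapse receptors, was at 28.3 ± 3.09 and 0.849 ± 0.601 CPM. *Casd1*, which acetylates sialic acids, was at 10.6 ± 2.69 and 0.442 ± 0.0635 CPM, and the sugar transporter gene *Slc50a1* at 13.4 ± 2.1 and 0.753 ± 0.321 CPM.

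**Figure D2:**
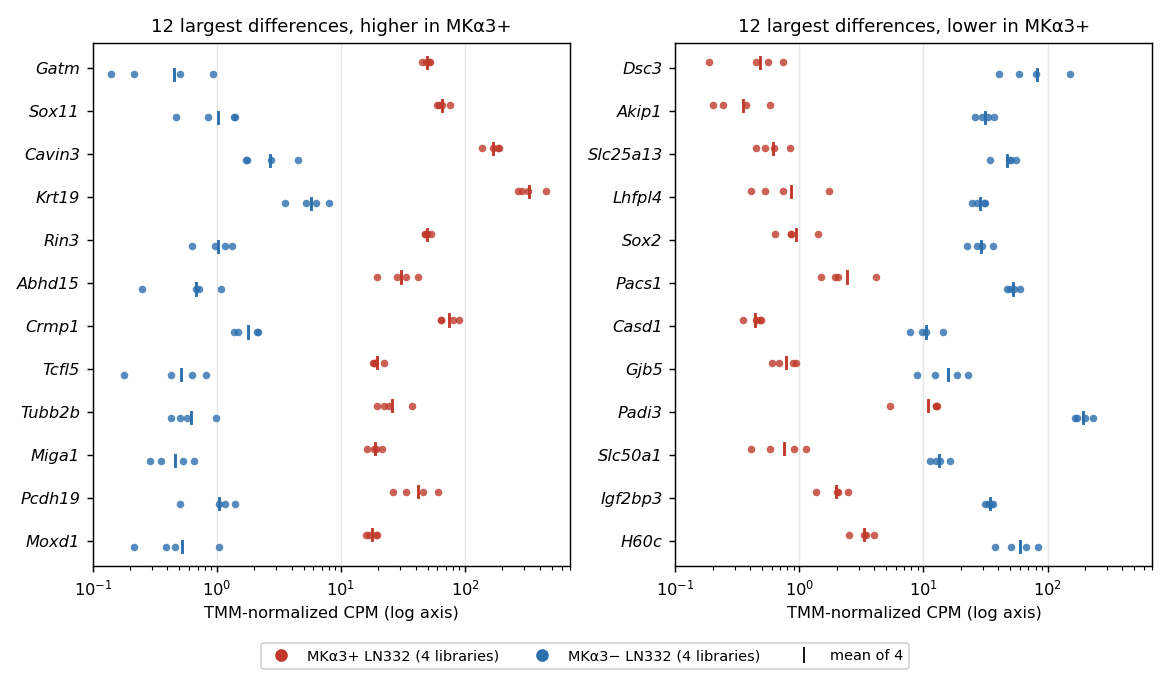
TMM-normalized CPM on a log axis of the 12 genes with the largest excess (left) and the 12 with the largest deficit (right) in MKα3+ cells under LN332; points are libraries (4 MKα3+, 4 MKα3−) and ticks are means of 4. The genes were chosen for libraries that do not overlap, and *Gatm* runs from 45.3 to 51.8 CPM in MKα3+ to 0.141 to 0.929 CPM in MKα3− libraries.

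Some genes were near absent from one line, at 1 CPM or less in all 4 of its libraries and at 5 CPM or more in all 4 of the other line. There were 21 such genes near absent from MKα3− cells and 11 near absent from MKα3+ cells, and all 32 were called in vehicle too. The first group includes *Has2*, a hyaluronan synthase, at 9.76, 9.46, 17.6 and 24.9 CPM in MKα3+ and 0.582, 0.177, 0.933 and 0.733 CPM in MKα3− libraries, the Wnt receptor gene *Fzd3* at 5.7, 6.82, 6.5 and 7.12 and 0.504, 0.424, 0.359 and 0.196 CPM, and *Rtn4rl2*, a Nogo receptor relative, at 11.6, 15.1, 15.8 and 18.2 and 0.233, 0.212, 0.0359 and 0.391 CPM. In these genes the libraries of a line differed by less than the lines did. Of the 21 genes, 5 are on chromosome X, namely *Magea8*, *Rhox5*, *Klf8*, *Prrg1* and *Luzp4*. Chromosome X held 468 of the 14072 genes with a position, and 19.9% of these 468 were called higher, against 11.7% of all genes. *Magea8* and *Rhox5* belong to families expressed mainly in germ cells. *Magea8* was at 7.75 to 10.8 CPM in MKα3+ and 0.0359 to 0.0978 CPM in MKα3− libraries, and *Rhox5* at 9.3 to 11.3 and 0.196 to 0.582 CPM. The second group includes *Sostdc1*, a secreted antagonist of BMP and Wnt ligands, at 6.29, 12.9, 27.4 and 11 CPM in MKα3− and 0.0803, 0.162, 0.0778 and 0.0375 CPM in MKα3+ libraries, and *Pi15*, a secreted peptidase inhibitor, at 13.2, 13.5, 17.6 and 10.1 and 0.161, 0.122, 0.35 and 0.0749 CPM. *Casd1* (chromosome 6, 4600911 to 4643355) and *Slc25a13* (chromosome 6, 6041218 to 6217304), both near absent from MKα3+ cells, lie in the same region of GRCm38.p6. *Pon3* (chromosome 6, 5216256 to 5256285), a paraoxonase gene that lies between them, was near absent from MKα3− cells, at 7.2 to 9.66 CPM against 0.349 to 0.587 CPM.

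The sequence upstream of such genes is shown because their level separates the lines most completely. For the 3 genes of each group with the largest log2 fold change that have a RefSeq promoter window in GRCm38.p6, leaving out *Dsc3*, whose sequence is not shown here, the 250 bases before the transcript start of that window are given 5′ to 3′ on the strand of the gene, with CpG dinucleotides in capitals. The start used lies inside the full extent of the gene for *Rtn4rl2* and *Slc25a13*, so that the *Rtn4rl2* window is wholly and the *Slc25a13* window partly within the gene. The windows are *Gatm* (chr2:122611278-122611527, minus strand), *Magea8* (chrX:154995851-154996100, minus strand) and *Rtn4rl2* (chr2:84886693-84886942, minus strand), expressed in MKα3+ cells, and *Akip1* (chr7:109703428-109703677, plus strand), *Slc25a13* (chr6:6217174-6217423, minus strand) and *Fam149a* (chr8:45382292-45382541, minus strand), expressed in MKα3− cells.
Gatm: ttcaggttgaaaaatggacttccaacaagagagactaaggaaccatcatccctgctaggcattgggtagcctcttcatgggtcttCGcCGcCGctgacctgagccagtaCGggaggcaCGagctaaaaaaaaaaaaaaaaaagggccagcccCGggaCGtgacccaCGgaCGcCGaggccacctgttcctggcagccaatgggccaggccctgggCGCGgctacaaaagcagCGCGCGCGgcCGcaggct
Magea8: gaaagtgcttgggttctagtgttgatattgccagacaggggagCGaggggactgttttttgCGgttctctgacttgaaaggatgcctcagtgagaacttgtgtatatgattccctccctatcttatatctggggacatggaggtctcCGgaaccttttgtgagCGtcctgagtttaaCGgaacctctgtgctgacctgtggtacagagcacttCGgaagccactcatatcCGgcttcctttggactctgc
Rtn4rl2: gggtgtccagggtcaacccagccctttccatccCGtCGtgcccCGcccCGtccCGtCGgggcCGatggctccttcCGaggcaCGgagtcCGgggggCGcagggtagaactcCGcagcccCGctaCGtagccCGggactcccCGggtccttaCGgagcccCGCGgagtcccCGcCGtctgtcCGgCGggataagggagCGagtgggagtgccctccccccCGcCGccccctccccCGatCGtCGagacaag
Akip1: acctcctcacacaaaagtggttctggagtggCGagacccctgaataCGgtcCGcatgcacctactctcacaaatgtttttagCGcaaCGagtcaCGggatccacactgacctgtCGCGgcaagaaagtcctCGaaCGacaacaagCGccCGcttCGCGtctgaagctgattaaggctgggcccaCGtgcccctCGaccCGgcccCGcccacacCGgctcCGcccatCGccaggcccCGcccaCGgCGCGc
Slc25a13: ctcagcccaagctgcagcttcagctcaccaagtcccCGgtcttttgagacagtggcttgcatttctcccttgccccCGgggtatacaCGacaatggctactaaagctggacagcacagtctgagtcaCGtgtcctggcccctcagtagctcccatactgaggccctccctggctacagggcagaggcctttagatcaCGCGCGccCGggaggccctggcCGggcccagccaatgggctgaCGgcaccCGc
Fam149a: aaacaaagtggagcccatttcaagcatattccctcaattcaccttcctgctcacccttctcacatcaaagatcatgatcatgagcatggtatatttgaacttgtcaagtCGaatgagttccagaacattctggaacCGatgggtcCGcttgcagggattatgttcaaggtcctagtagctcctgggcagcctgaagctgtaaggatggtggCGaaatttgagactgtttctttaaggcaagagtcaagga

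The *Rtn4rl2*, *Akip1* and *Gatm* windows held 29, 25 and 17 CpG dinucleotides, and those of *Slc25a13*, *Magea8* and *Fam149a* held 11, 7 and 4. The median of all 32851 RefSeq windows of this length was 6, with quartiles of 2 and 16. CpG-rich and CpG-poor windows were present in both groups. The letters TGANTCA, the AP-1 core, which reads the same on both strands, occurred once in the *Slc25a13* window and in 6.75% of all windows. GGAATG, the TEAD core searched on both strands, and TATAAA, searched on the strand of the gene, were in none of the 6 and in 12.6% and 7.59% of all windows. These are matches of letters in 250 bases and carry no measurement of a factor. The windows of called genes were not compared with those of all genes. A window was present for 73.1% of genes called higher, 76.5% of those called lower and 75.3% of all tested.

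The genes with the largest differences in CPM, which are abundant ones, were of other kinds. *Thbs1*, the matricellular protein thrombospondin 1, was at 2892, 3915, 5892 and 5552 CPM in MKα3+ and 819, 1263, 1524 and 1054 CPM in MKα3− libraries, a log2 difference of 1.95 (SE 0.27, adjusted p of 3.57e-05). *Plau*, the urokinase plasminogen activator, was at 2621, 1789, 2327 and 2116 and 1004, 544, 597 and 478 CPM, a log2 difference of 1.81 (SE 0.24, adjusted p of 1.72e-05). *Fbln2*, the matrix glycoprotein fibulin 2, was at 1530.1, 1533, 1496 and 1645 and 52.1, 71.8, 76.3 and 102 CPM, a log2 difference of 4.4 (SE 0.23, adjusted p of 4.28e-10). All 4 MKα3+ libraries were above all 4 MKα3− libraries for the 3 genes, and *Thbs1* was lowest in replicate 1 of both lines. *Ahnak*, a giant scaffold protein of the cell cortex, was at 2221, 3053, 3142 and 4106 and 2012, 2252, 2778 and 1599 CPM. Its libraries overlapped, with a log2 difference of 0.54 (SE 0.20, adjusted p of 0.0464), and its call was lost in 8 of 20 alternative analyses.

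Lower in MKα3+ cells by CPM were *Krt5* and *Krt6a*, described with the keratins, *Gsto1*, the ribosomal protein genes *Rpl41* and *Rplp1*, and the predicted gene *Gm5148*. *Gsto1*, a glutathione transferase that reduces dehydroascorbate, was at 3002, 3032, 2936 and 3001 CPM in MKα3− and 1047, 786, 754 and 649 CPM in MKα3+ libraries, a log2 difference of -1.91 (SE 0.15, adjusted p of 4.63e-08). *Rpl41* and *Rplp1* had log2 differences of -0.74 and -0.60, and in both MKα3− replicate 4 was the highest library, at 1388, 1586, 1600.3 and 2600.2 CPM in replicates 1 to 4 for *Rpl41* and 1390.1, 1551, 1405 and 2366 CPM for *Rplp1*. The call of *Rplp1* was lost without that library (-0.42, SE 0.12), and that of *Rpl41* when the median of the surrounding 20 Mb was subtracted (-0.43, SE 0.15). *Gm5148*, which has exons on the strand opposite a ribosomal protein pseudogene, was at 1153, 1109, 976 and 1683 CPM in MKα3− and 784, 654, 611 and 581 CPM in MKα3+ libraries. Ribosomal protein genes have near-identical processed copies in the genome, so that these counts are uncertain. The share of counts on ribosomal protein genes was 2.59% in MKα3− replicate 4 and 1.31% to 1.91% in the other 7 libraries, and its part in these differences was not tested.

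Integrin subunit genes were called at 10% of the α list and 14.3% of the β list, against 20.6% of all genes. Of 10 measured integrin α subunit genes 1 was higher and 0 were lower in MKα3+ cells, and of 7 measured β subunit genes 1 was higher and 0 were lower, against 11.7% and 8.92% of all genes. *Itga2*, the collagen-binding α2 subunit, was at 16.3, 7.55, 18.5 and 26.5 CPM in MKα3+ and 3.69, 4.41, 8.79 and 12.7 CPM in MKα3− libraries, a log2 difference of 1.31 (SE 0.42, adjusted p of 0.0225). These libraries overlapped and the call was lost in 7 of 20 alternatives, with adjusted p up to 0.103. *Itgb2*, the leukocyte integrin β2 subunit, was at 6.95, 6.05, 7.32 and 14 and 3.61, 2.83, 3.84 and 3.81 CPM, with the highest value in MKα3+ replicate 4, the library with the highest sum of immune cell markers. Its log2 difference was 1.23 (SE 0.40, adjusted p of 0.0268), its call was lost in 5 of 20 alternatives, one of which left out that library, and the part of immune cell markers in it was not tested. *Itgb1*, the partner of α3, was at 542, 779.7, 813 and 823 CPM in MKα3+ and 422, 615, 714 and 433 CPM in MKα3− libraries. With a log2 difference of 0.46 (SE 0.18, adjusted p of 0.0615) it was not called, but it was without MKα3+ replicate 1 (0.60, SE 0.18, adjusted p of 0.0151) and without MKα3− replicate 3 (0.59, SE 0.18, adjusted p of 0.0177).

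Of 3 measured LN332 chains 0 were higher and 1 was lower, a share of 33.3% against 20.6% of all genes. The chain called was *Lamb3*, which was lower in MKα3+ than in MKα3− cells. Its values were 1007, 1077, 1490.0 and 1019 CPM in MKα3− and 742, 543, 667 and 737 CPM in MKα3+ libraries, a log2 difference of -0.76 (SE 0.14, adjusted p of 0.000496). *Lama3* had a log2 difference of -0.44 (SE 0.15, adjusted p of 0.0367), under the minimum of 0.5. The hemidesmosome list, in which *Itga6*, *Itgb4*, *Col17a1*, *Dst*, *Plec* and *Cd151* were measured, had 0 of 6 genes called. *Col17a1*, the type XVII collagen of hemidesmosomes, was at 604, 1025, 2009.7 and 905 CPM in MKα3− and 341, 614, 621 and 882 CPM in MKα3+ libraries, with a difference of -0.82 (SE 0.37, adjusted p of 0.0971). Without MKα3− replicate 1 it was called, at -1.07 (SE 0.38, adjusted p of 0.0411). It was also called with replicate number as a block in the limma-voom model, at -0.81 (SE 0.17, adjusted p of 0.00126). The log2 differences of *Itga6* and *Itgb4*, the subunits of α6β4, were -0.30 (SE 0.27) and -0.0015 (SE 0.20), and the spread between replicates was larger than either.

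Tetraspanins organise laminin-binding integrins in the membrane, and *Cd81* stood out among the 15 measured tetraspanin and partner genes, of which 2 were higher and 1 was lower. It was at 108, 94.7, 108 and 87.4 CPM in MKα3+ and 6.98, 6.78, 6.68 and 9.34 CPM in MKα3− libraries, a log2 difference of 3.76 (SE 0.13, adjusted p of 4.91e-12). *Tspan13* was higher by a log2 difference of 1.6 (SE 0.28), and *Tspan15*, which guides the protease ADAM10, was lower, with a log2 difference of -2.13 (SE 0.28). The share called was 20%, against 20.6% of all genes, and the median of the list was 0.07, near that of all genes.

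Proteins of focal adhesions and of the contractile cytoskeleton connect integrins to actin. Of 24 measured focal adhesion genes 4 were higher and 1 was lower, a share of 20.8% that is close to the 20.6% of all genes. *Nedd9*, a scaffold of the p130Cas family, was at 72.7, 52.9, 63.9 and 68.2 CPM in MKα3+ and 14.5, 16.2, 18.8 and 21 CPM in MKα3− libraries, a log2 difference of 1.88 (SE 0.12, adjusted p of 7e-09). *Tns3* and *Tns4*, tensins that bind integrin β tails, moved in opposite directions, with log2 differences of 0.82 (SE 0.1) and -0.84 (SE 0.15). *Tln1*, the integrin activator talin 1, was higher by 0.65 (SE 0.12), a call that was lost when the median of the surrounding 20 Mb was subtracted (adjusted p = 0.176). Of 18 measured contractile and actin-binding genes 7 were higher and 0 were lower, a share of 38.9%. The median log2 difference was 0.41, against 0.0062 for all genes. The 7 genes were *Dbn1*, *Fhl1*, *Myh10*, *Tpm1*, *Cald1*, *Myh9* and *Actn1*, which code for drebrin, a LIM-domain protein, 2 nonmuscle myosins, a tropomyosin, caldesmon and α-actinin 1. *Dbn1* was at 80.9, 82.9, 81.6 and 84.5 and 7.95, 14, 6.57 and 15.8 CPM, a log2 difference of 3.02 (SE 0.22, adjusted p of 2.27e-08), and the 4 MKα3+ libraries lay within 4 CPM of each other. *Fhl1* had a log2 difference of 1.8 (SE 0.29) and *Myh10* one of 1.15 (SE 0.17).

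Of the 6 measured caveolin and cavin genes *Cavin3* and *Cavin4* were called higher, and the call of *Cavin4* was lost in 11 of 20 alternatives. *Cav1*, the main caveolin of keratinocytes, was at 396, 432, 521 and 509.8 CPM in MKα3+ and 299.9, 466, 576 and 619 CPM in MKα3− libraries, and these overlapped. Among 7 measured Cdc42 effector genes *Cdc42ep3* was higher by a log2 difference of 1.45 (SE 0.16), and *Cdc42ep5* and *Cdc42ep4* were lower, with log2 differences of -0.96 (SE 0.14) and -0.62 (SE 0.13). Of 12 genes of the Rin family and Rab5 endocytosis, *Rin3* and the membrane-bending *Bin1* were higher and *Rin2* was lower. *Rin2* was at 20.8 ± 2.35 CPM in MKα3+ and 46.2 ± 6.96 CPM in MKα3− libraries (SD, n = 4 each). The shares called in these lists, in this order, were 33.3%, 42.9% and 25%, against 20.6% of all genes.

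Keratins 7, 8, 18 and 19 build the filaments of simple epithelia, keratins 5 and 14 those of basal keratinocytes, and keratins 6, 16 and 17 are induced in wounds. Of 5 measured simple epithelial keratins 4 were higher in MKα3+ cells and 0 were lower, with a median log2 difference of 1.12. The share called was 80%, against 20.6% of all genes. *Krt8* was at 1890.1, 1525, 1902 and 1728 CPM in MKα3+ and 809.9, 728, 753 and 939.9 CPM in MKα3− libraries, a log2 difference of 1.12 (SE 0.11, adjusted p of 7.36e-07). *Krt7* was at 2612, 2659.6, 2616 and 2639 and 1471, 1433, 1375 and 1884 CPM, a log2 difference of 0.78 (SE 0.11, adjusted p of 3.15e-05). Neither gene overlapped between the lines, whereas *Krt18*, the usual partner of keratin 8, was at 376 to 599 and 351 to 669 CPM and had a log2 difference of 0.066 (SE 0.21). *Krt20* was called from values of 0.562 to 2.25 and 0 to 0.582 CPM, which overlapped.

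Of 7 measured basal and stress keratins 1 was higher and 2 were lower in MKα3+ cells, a share of 42.9% against 20.6% of all genes. *Krt5* was at 2847, 5138, 6986 and 5041 CPM in MKα3− and 2139, 3199.7, 2616 and 3100.4 CPM in MKα3+ libraries, a log2 difference of -0.80 (SE 0.23, adjusted p of 0.0117). Replicate 1 was the lowest library in both lines, and MKα3− replicate 1 overlapped with the MKα3+ libraries. *Krt6a* was at 874, 1374, 3181 and 1982 CPM in MKα3− and 762, 914, 919 and 1010.4 CPM in MKα3+ libraries, a log2 difference of -0.89 (SE 0.30, adjusted p of 0.0337) whose call was lost in 6 of 20 alternatives, among them the one without MKα3− replicate 3. Reads of *Krt6a* may also come from its near-identical copy *Krt6b*. *Krt17* was higher, at 1794, 1678, 1389.9 and 1282 CPM in MKα3+ and 989.7, 882, 964 and 886 CPM in MKα3− libraries, a log2 difference of 0.71 (SE 0.15, adjusted p of 0.00155). *Krt14*, the partner of keratin 5, was at 5896, 8296, 6999 and 8179 CPM in MKα3+ and 3771, 6417, 7222 and 6934 CPM in MKα3− libraries, and its log2 difference of 0.30 (SE 0.22) was not called.

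Transcription factors of basal keratinocytes were lower where they were called. Of 15 measured 0 were higher and 4 were lower, with a median log2 difference of -0.30. The share called was 26.7%, against 20.6% of all genes. *Trp63*, the p63 factor that maintains the basal layer, was at 74.8, 104, 152 and 73.5 CPM in MKα3− and 30.4, 58.9, 61.9 and 62.1 CPM in MKα3+ libraries, a log2 difference of -0.91 (SE 0.26, adjusted p of 0.0128). *Tfap2c*, an AP-2 factor of the epidermis, was at 2.33, 2.58, 3.88 and 1.08 and 0.402, 0.162, 0.233 and 0.112 CPM, a log2 difference of -3.4 (SE 0.58, adjusted p of 0.000242). Both genes were lower in every MKα3+ library than in any MKα3− library, and *Trp63* was lowest in replicate 1 of MKα3+ cells. *Elf3* and *Ehf*, ETS factors of epithelia, were the other members called, and the call of *Elf3* was lost when the regional median was subtracted (adjusted p = 0.0825). Of 12 measured genes of epidermal differentiation 2 were higher, *Casp14* and *Cdsn*, and 4 were lower, *Sbsn*, *Ivl*, *Grhl3* and *Krt10*. These are 50% of the list, against 20.6% of all genes. The call of *Ivl* was lost without MKα3− replicate 3, MKα3+ replicate 1 or MKα3+ replicate 2, with adjusted p from 0.0564 to 0.0903. *Sbsn*, the secreted protein suprabasin, was at 40.6, 30.9, 58.1 and 39.8 CPM in MKα3− and 9.76, 12.4, 12.4 and 14.9 CPM in MKα3+ libraries, a log2 difference of -1.75 (SE 0.23, adjusted p of 1.58e-05). *Cdsn*, the corneodesmosome protein, had a log2 difference of 0.92 (SE 0.21), and *Casp14* one of 2.93 (SE 0.51) at 1.38 to 1.95 and 0.0718 to 0.427 CPM. In the differentiation list 11 of 23 genes, among them *Krt1*, *Lor* and *Flg*, were not analysed here.

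The junction genes that were called were lower for desmosomes and higher for tight junctions. Of 9 measured desmosome genes 0 were higher and 3 were lower, namely *Dsc3*, *Pkp2* and *Perp*. These are 33.3% of the list, against 20.6% of all genes. *Pkp2*, a plakophilin that links desmosomal cadherins to keratins, was at 23.2, 17.8, 16.4 and 22.2 CPM in MKα3− and 3.53, 1.99, 1.83 and 1.12 CPM in MKα3+ libraries, a log2 difference of -3.32 (SE 0.31, adjusted p of 3.21e-07). *Perp*, a p63 target of desmosomes, was lower, with a log2 difference of -0.78 (SE 0.13). Of 17 measured tight junction genes 5 were higher and 0 were lower, namely *Cldn3*, *Marveld3*, *Cldn6*, *Cgnl1* and *Tjp1*. These are 29.4% of the list. *Cldn3* was at 144, 113, 121 and 101 CPM in MKα3+ and 6.13, 4.27, 7.32 and 10.6 CPM in MKα3− libraries, a log2 difference of 4.18 (SE 0.23, adjusted p of 1.18e-09). *Cldn6*, a claudin of embryonic epithelia, was at 386 ± 55.5 and 179.9 ± 41.5 CPM (SD, n = 4 each), a log2 difference of 1.12 (SE 0.17, adjusted p of 0.000101).

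Of 9 measured classical cadherins and catenins *Cdh2* and *Cdh1* were higher and 0 were lower, a share of 22.2% that is near the 20.6% of all genes. *Cdh1*, E-cadherin, was at 481, 691, 662 and 714 CPM in MKα3+ and 269, 455, 471 and 282 CPM in MKα3− libraries, a log2 difference of 0.82 (SE 0.17, adjusted p of 0.00166). *Cdh2*, N-cadherin, was at 201, 271, 304 and 270.4 and 70.6, 110.0, 114 and 108 CPM, a log2 difference of 1.39 (SE 0.18, adjusted p of 1.87e-05). Both cadherins were therefore higher in all 4 MKα3+ libraries, and both were lowest in replicate 1 of either line. Of 7 measured connexins *Gjb5* alone was called, a share of 14.3%. *Gja1*, connexin 43, was at 143 to 197 CPM in MKα3+ and 139 to 224 CPM in MKα3− libraries.

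**Figure D3:**
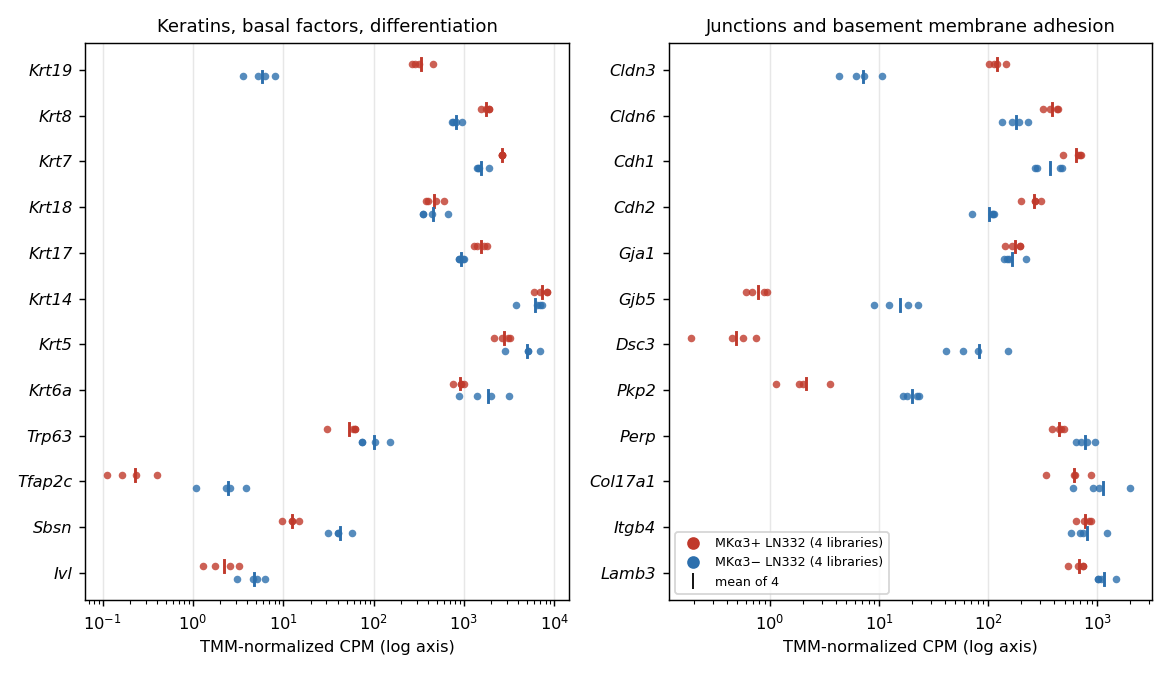
TMM-normalized CPM on a log axis of 12 keratin, transcription factor and differentiation genes (left) and 12 junction and adhesion genes (right) in the 4 MKα3+ and 4 MKα3− libraries given LN332; points are libraries and ticks are means of 4. *Krt8*, *Krt7*, *Cldn3* and *Cdh2* do not overlap and are higher in MKα3+ cells, *Dsc3*, *Pkp2* and *Lamb3* do not overlap and are lower, and *Krt18*, *Krt14*, *Gja1* and *Itgb4* overlap.

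The list for epithelial-mesenchymal transition held genes that moved both ways. Of 14 measured 5 were higher (*Fn1*, *Snai3*, *Cdh2*, *Zeb2* and *Cdh1*) and 2 were lower (*Twist2* and *Snai2*). The share called was 50%, against 20.6% of all genes. Members called higher include both the epithelial *Cdh1* and the mesenchymal *Fn1* and *Cdh2*. *Fn1*, fibronectin, was at 28.7, 53.3, 39.7 and 35.1 CPM in MKα3+ and 6.36, 5.93, 6.57 and 16.7 CPM in MKα3− libraries, a log2 difference of 2.3 (SE 0.32, adjusted p of 3.02e-05). *Twist2* was at 24.1, 19.5, 27.7 and 26.3 CPM in MKα3− and 4.78, 4.42, 4.9 and 3.75 CPM in MKα3+ libraries, a log2 difference of -2.44 (SE 0.17, adjusted p of 1.14e-08). *Snai2*, the transcription factor Slug, was at 28.2, 40.5, 56.4 and 52 and 14.9, 20, 17.7 and 17.6 CPM, a log2 difference of -1.29 (SE 0.20, adjusted p of 8.69e-05). Both transcription factors were lower in all 4 MKα3+ libraries.

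Matrix glycoproteins were called in a share of 44.0%, against 20.6% of all genes. Of 25 measured laminins other than LN332 and matrix glycoproteins 9 were higher and 2 were lower, with a median log2 difference of 0.45 against 0.0062 for all genes. Beside *Fbln2*, *Thbs1* and *Fn1* these were *Npnt*, *Spp1*, *Sparc*, *Thbs3*, *Lamb2* and *Agrn*. *Npnt*, the integrin α8β1 ligand nephronectin, was at 54.4, 74.4, 96.2 and 79.8 CPM in MKα3+ and 4.73, 5.97, 7.82 and 7.58 CPM in MKα3− libraries, a log2 difference of 3.55 (SE 0.19, adjusted p of 9.63e-10). *Spp1*, osteopontin, was at 12.5, 5.16, 5.68 and 6.78 and 0.776, 0.353, 1.11 and 0.391 CPM, a log2 difference of 3.52 (SE 0.48, adjusted p of 2.7e-05). *Thbs2* was lower, at 6.4, 7.13, 18.1 and 4.99 CPM in MKα3− and 1.08, 0.406, 0.934 and 0.412 CPM in MKα3+ libraries, a log2 difference of -3.64 (SE 0.65, adjusted p of 0.000383), so that the paralogs *Thbs1* and *Thbs2* differed in opposite directions. *Ecm1* was lower, with a log2 difference of -1.08 (SE 0.23).

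Of 21 measured collagen genes 3 were higher and 2 were lower, a share of 23.8% that is near the 20.6% of all genes. *Col4a1* and *Col4a2*, the type IV chains of basement membranes, were at 379 ± 53.3 and 685 ± 136 CPM in MKα3+ and 110.5 ± 20.9 and 268 ± 76.1 CPM in MKα3− libraries (SD, n = 4 each), with log2 differences of 1.79 (SE 0.14) and 1.38 (SE 0.18). They are neighbours on opposite strands whose exons overlap, on chromosome 8 within a stretch whose genes had a positive median. When the regional median was subtracted both stayed called, at smaller differences of 1.14 (SE 0.14) and 0.73 (SE 0.18). *Col16a1* was lower, with a log2 difference of -1.98 (SE 0.36), and the calls of *Col5a2* and *Col4a4* were lost in 10 of 19 and 8 of 20 alternatives.

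Extracellular proteolysis genes were mostly higher where called. Of 16 measured metalloproteinases and inhibitors 7 were higher (*Mmp12*, *Mmp9*, *Mmp24*, *Mmp11*, *Timp1*, *Mmp15* and *Timp2*) and 1 was lower (*Mmp28*). These are 50% of the list, against 20.6% of all genes. *Mmp9*, gelatinase B, was at 25.9, 10.4, 14.2 and 11.1 CPM in MKα3+ and 9.7, 3.74, 1.65 and 4.99 CPM in MKα3− libraries, a log2 difference of 1.81 (SE 0.47, adjusted p of 0.00692), with replicate 1 the highest library of each line. *Timp1*, an inhibitor of these enzymes, was at 63.7, 55.6, 48.4 and 49.3 and 19.7, 27, 20.6 and 34.5 CPM, a log2 difference of 1.13 (SE 0.15, adjusted p of 2.65e-05). *Mmp12*, the macrophage elastase, was called from 0.406 to 1.27 and 0 to 0.431 CPM, and was highest in MKα3+ replicate 4, as the sum of immune cell markers was, whose part in this difference was not tested. Its call was lost without MKα3− replicate 4 (adjusted p of 0.0502). Of 11 measured genes of plasminogen activation 4 were higher, among them *Tfpi*, *Plau* and *Hpse*, and 1 was lower (*Serpinb5*, maspin). The share called was 45.5%. *Serpinb5* was at 191, 182, 240.2 and 256 CPM in MKα3− and 115, 102, 124 and 120.1 CPM in MKα3+ libraries, a log2 difference of -0.91 (SE 0.12, adjusted p of 2.69e-05).

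Growth factor and ERK genes were called in both directions. Of 14 measured EGF family ligands and ErbB receptors 3 were higher and 1 was lower, a share of 28.6% against 20.6% of all genes. *Btc*, betacellulin, was called at 0.568 to 1.08 CPM in MKα3+ and 0.0489 to 0.621 CPM in MKα3− libraries, which overlapped, and *Epgn*, epigen, was lower, with a log2 difference of -1.42 (SE 0.34). Of 15 measured feedback and output genes of ERK 6 were higher and 2 were lower, a share of 53.3%, with a median of 0.26. *Dusp4*, a phosphatase of ERK, was at 46.8, 40.5, 46.7 and 55 CPM in MKα3+ and 13.3, 9.82, 20 and 24.3 CPM in MKα3− libraries, a log2 difference of 1.59 (SE 0.19, adjusted p of 5.37e-06). *Dusp6*, another phosphatase of ERK, was at 82.8, 80, 86.9 and 76.1 CPM in MKα3+ and 147, 108, 132 and 85.9 CPM in MKα3− libraries, with a log2 difference of -0.51 (SE 0.16), a call that was lost in 7 of 20 alternatives. *Spry1* was higher by 1.29 (SE 0.22), and *Phlda1* was lower, with a log2 difference of -0.77 (SE 0.11). In vehicle 2 of the 15 were higher and 1 was lower, and the median was 0.35. The smallest unadjusted interaction p of the list was 0.01734 in limma-voom, and 0 genes passed adjustment.

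Of 21 measured targets of YAP and TEAD, which respond to cell tension and spreading, 8 were higher and 1 was lower. The share called was 42.9%, against 20.6% of all genes, and the median log2 difference was 0.43. *Ankrd1* was at 27.5, 20.9, 32.7 and 26 CPM in MKα3+ and 4.35, 0.883, 1.04 and 3.57 CPM in MKα3− libraries, a log2 difference of 3.82 (SE 0.41, adjusted p of 1.96e-06). *Ccn1*, a matricellular protein, was at 763, 571, 976 and 824 and 331, 239, 220.0 and 254 CPM, a log2 difference of 1.57 (SE 0.20, adjusted p of 1.71e-05). *Amotl2*, an inhibitor of YAP and itself a target, was at 498, 489, 484 and 495 and 214, 213, 159 and 171 CPM, a log2 difference of 1.39 (SE 0.16, adjusted p of 3.52e-06). None of the 3 overlapped between the lines. The member called lower was *Nt5e*, the ectonucleotidase CD73, with a log2 difference of -0.96 (SE 0.12).

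Of 24 measured genes of TGF-β signalling 4 were higher and 2 were lower, a share of 25% that is near the 20.6% of all genes. *Inhba*, the activin A subunit, was at 3.41, 3.37, 4.16 and 2.73 CPM in MKα3+ and 0.388, 0.636, 0.61 and 0.44 CPM in MKα3− libraries, a log2 difference of 2.67 (SE 0.30, adjusted p of 3.75e-06). *Fst*, follistatin, which binds activin, was at 673, 1156, 1002 and 721 CPM in MKα3− and 301, 408, 339 and 333 CPM in MKα3+ libraries, a log2 difference of -1.33 (SE 0.21, adjusted p of 0.000109). The ligand subunit was thus higher and its antagonist lower in every MKα3+ library. The receptors *Tgfbr1*, *Tgfbr2* and *Tgfbr3* were higher by 0.78, 0.70 and 1.96, and the call of *Tgfbr1* was lost when the regional median was subtracted (adjusted p = 0.158). Of 14 measured Notch pathway genes 2 were higher and 1 was lower, a share of 21.4% that is near the 20.6% of all genes. In this list *Dtx4*, a ubiquitin ligase of the Deltex family, had the largest difference, 2.73 (SE 0.23).

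In the Wnt pathway 7 of 26 measured genes were higher and 5 were lower, a share of 46.2% against 20.6% of all genes. The higher ones were the receptors *Ror1*, *Fzd2*, *Fzd4*, *Fzd1* and *Lgr4* and the ligands *Wnt5a* and *Wnt11*, and the lower ones *Sfrp1*, *Wnt3a*, *Axin2*, *Wnt4* and *Wnt10a*. *Wnt5a*, known as a ligand of β-catenin-independent signalling through ROR receptors, was at 5.42, 5.48, 6.65 and 4.05 CPM in MKα3+ and 1.44, 1.06, 1.01 and 0.929 CPM in MKα3− libraries, a log2 difference of 2.25 (SE 0.27, adjusted p of 5.77e-06). *Ror1* was at 3.57, 2.56, 5.49 and 4.94 and 0.582, 0.494, 0.969 and 0.587 CPM, a log2 difference of 2.61 (SE 0.44, adjusted p of 0.000209). *Wnt3a*, a ligand of the β-catenin pathway, was at 7.45, 9.25, 16.3 and 6.01 CPM in MKα3− and 1.29, 1.62, 0.739 and 1.27 CPM in MKα3+ libraries, a log2 difference of -2.95 (SE 0.43, adjusted p of 5.96e-05). *Axin2*, a target and inhibitor of β-catenin signalling, was lower, with a log2 difference of -0.92 (SE 0.27), at 4.46, 8.72, 7.32 and 8.75 CPM in MKα3− and 4.26, 3.08, 3.85 and 3.75 CPM in MKα3+ libraries.

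Guidance cues first known from axons also act on migrating epithelial cells. Of 43 measured ligands and receptors 17 were higher and 2 were lower, a share of 44.2% against 20.6% of all genes. The median log2 difference of the list was 0.32. The higher ones included 6 semaphorins (*Sema6a*, *Sema3e*, *Sema3a*, *Sema7a*, *Sema4c* and *Sema3f*), 6 Eph receptors and ephrins (*Epha7*, *Ephb2*, *Efnb2*, *Ephb4*, *Epha4* and *Efna4*), *Ntn1*, *Ntn4*, *Plxna2*, *Slit2* and *Unc5b*. *Sema6a* was at 4.1, 4.59, 5.37 and 4.87 CPM in MKα3+ and 0.698, 0.424, 0.287 and 0.342 CPM in MKα3− libraries, a log2 difference of 3.45 (SE 0.33, adjusted p of 4.81e-07). *Ephb2* was at 9.04, 8.12, 7.7 and 5.09 and 2.6, 1.27, 0.574 and 1.37 CPM, a log2 difference of 2.52 (SE 0.35, adjusted p of 3.61e-05). *Ephb6* and *Sema4a* were lower, with log2 differences of -1.57 (SE 0.26) and -0.81 (SE 0.22). In vehicle 13 of the 43 were higher, and the difference of *Sema6a* was 2.11 there, with an unadjusted interaction p of 0.00782 and an adjusted one of 0.9999. Of the 4 measured genes of the SoxC family with *Sox9*, *Sox4* was called beside *Sox11*, at 304, 253, 234 and 196 CPM in MKα3+ and 71, 163, 110.1 and 165 CPM in MKα3− libraries, a log2 difference of 1.02 (SE 0.27, adjusted p of 0.00841). Its call was lost without replicate 1 of both lines (0.66, SE 0.26, adjusted p of 0.0635), as was that of *Sema4a* (adjusted p of 0.0607).

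Genes of secreted immune signals were higher where called, and those of the interferon response, called in a smaller share than all genes, were lower where called. Of 25 measured cytokines and chemokines 10 were higher and 0 were lower, a share of 40%, with a median log2 difference of 0.63. *Csf1*, the growth factor of macrophages, was at 419, 329, 409 and 390.1 CPM in MKα3+ and 112, 88, 86.5 and 80.7 CPM in MKα3− libraries, a log2 difference of 2.08 (SE 0.15, adjusted p of 2.07e-08). *Il33* was at 3.98, 3.82, 3.0 and 5.28 and 0.466, 0.177, 0.395 and 0.587 CPM, and *Tslp*, like IL-33 an alarmin of the skin, at 1.29, 1.79, 1.36 and 2.14 and 0.427, 0.247, 0.179 and 0.0978 CPM, with log2 differences of 3.37 (SE 0.52) and 2.79 (SE 0.37). The groups of these 3 genes did not overlap. Of 33 measured interferon-stimulated genes 0 were higher and 5 were lower, among them *Oas2*, *Irf7*, *Ifih1* and *Gbp3*, a share of 15.2% against 20.6% of all genes, with a median of -0.31. The call of *Ifih1* was lost when the regional median was subtracted (-0.49, SE 0.11). *Oas2*, a sensor of double-stranded RNA, was at 192, 96.3, 164 and 67.5 CPM in MKα3− and 52.6, 30.4, 37 and 31.2 CPM in MKα3+ libraries, a log2 difference of -1.7 (SE 0.31, adjusted p of 0.000443). Of 17 measured genes of antigen presentation 1 was higher and 3 were lower, a share of 23.5% that is near that of all genes. *H2-T23*, a nonclassical class I gene of a family with near-identical members, was at 250.3, 135, 197 and 110.3 CPM in MKα3− and 21.1, 14.7, 12.6 and 14.5 CPM in MKα3+ libraries, a log2 difference of -3.41 (SE 0.27, adjusted p of 5.14e-08). *Cd274*, which codes for the checkpoint ligand PD-L1, was lower, with a log2 difference of -0.91 (SE 0.19), and the calls of *Cd80* and *Psmb9* were each lost in 9 of 20 alternatives.

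Called members of the glycolysis and hypoxia list were mostly lower in MKα3+ cells. Of 26 measured genes 1 was higher and 7 were lower, a share of 30.8% against 20.6% of all genes. The median of the list was -0.25. *Aldoc*, a glycolytic aldolase, was at 49.9, 58.6, 69 and 55.7 CPM in MKα3− and 16.7, 18.3, 18.1 and 18.7 CPM in MKα3+ libraries, a log2 difference of -1.69 (SE 0.12, adjusted p of 1.14e-08). *Egln3*, a hydroxylase that marks HIF for degradation, was at 12.2, 4.38, 18.8 and 6.16 and 0.321, 0.365, 0.739 and 2.58 CPM, a log2 difference of -3.63 (SE 0.93, adjusted p of 0.00661) with MKα3+ replicate 4 above the other 3. *Bnip3*, a mitophagy receptor, was lower, with a log2 difference of -1.05 (SE 0.19), and the call of *Hk2*, the member called higher, was lost in 10 of 20 alternatives. *Abcg1*, a cholesterol exporter, was the 1 gene called of 26 in the cholesterol list, at 13.8, 9.05, 9.38 and 10.6 CPM in MKα3+ and 2.95, 1.02, 1.65 and 0.978 CPM in MKα3− libraries. In the creatine list *Ckmt1*, the mitochondrial creatine kinase, was lower, with a log2 difference of -1.96 (SE 0.45), while *Gatm* was higher, and in the malate-aspartate shuttle *Slc25a13* was the 1 member called of 7.

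Of 32 measured genes of DNA replication and mitosis 1 was higher and 4 were lower, with a median of -0.19. The share called was 15.6%, under the 20.6% of all genes. *Ube2c*, *Cdk1*, *Ccnb1* and *Aurka*, which act in mitosis, were lower, and the call of *Ccnb1* was lost without MKα3− replicate 1 (-0.42). *Cdk1* was at 267, 188, 197 and 181 CPM in MKα3− and 126, 127, 140.1 and 131 CPM in MKα3+ libraries, a log2 difference of -0.65 (SE 0.13, adjusted p of 0.00118) whose call was lost when the regional median was subtracted. *Cdkn1c*, the cyclin-dependent kinase inhibitor p57, was at 9.47, 7.27, 8.47 and 6.84 CPM in MKα3− and 1.0, 0.406, 0.856 and 0.412 CPM in MKα3+ libraries, a log2 difference of -3.66 (SE 0.33, adjusted p of 2.7e-07), and *Cdk6* was higher by 1.12 (SE 0.26). Of 16 G1 cyclins and inhibitors 2 were higher and 2 were lower, a share of 25% against 20.6% of all genes. Of 13 measured S100 genes and of 18 endoplasmic reticulum chaperones 0 were called, and of 10 AP-1 factors *Batf3* alone was, higher by 2.31 (SE 0.25).

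**Figure D4:**
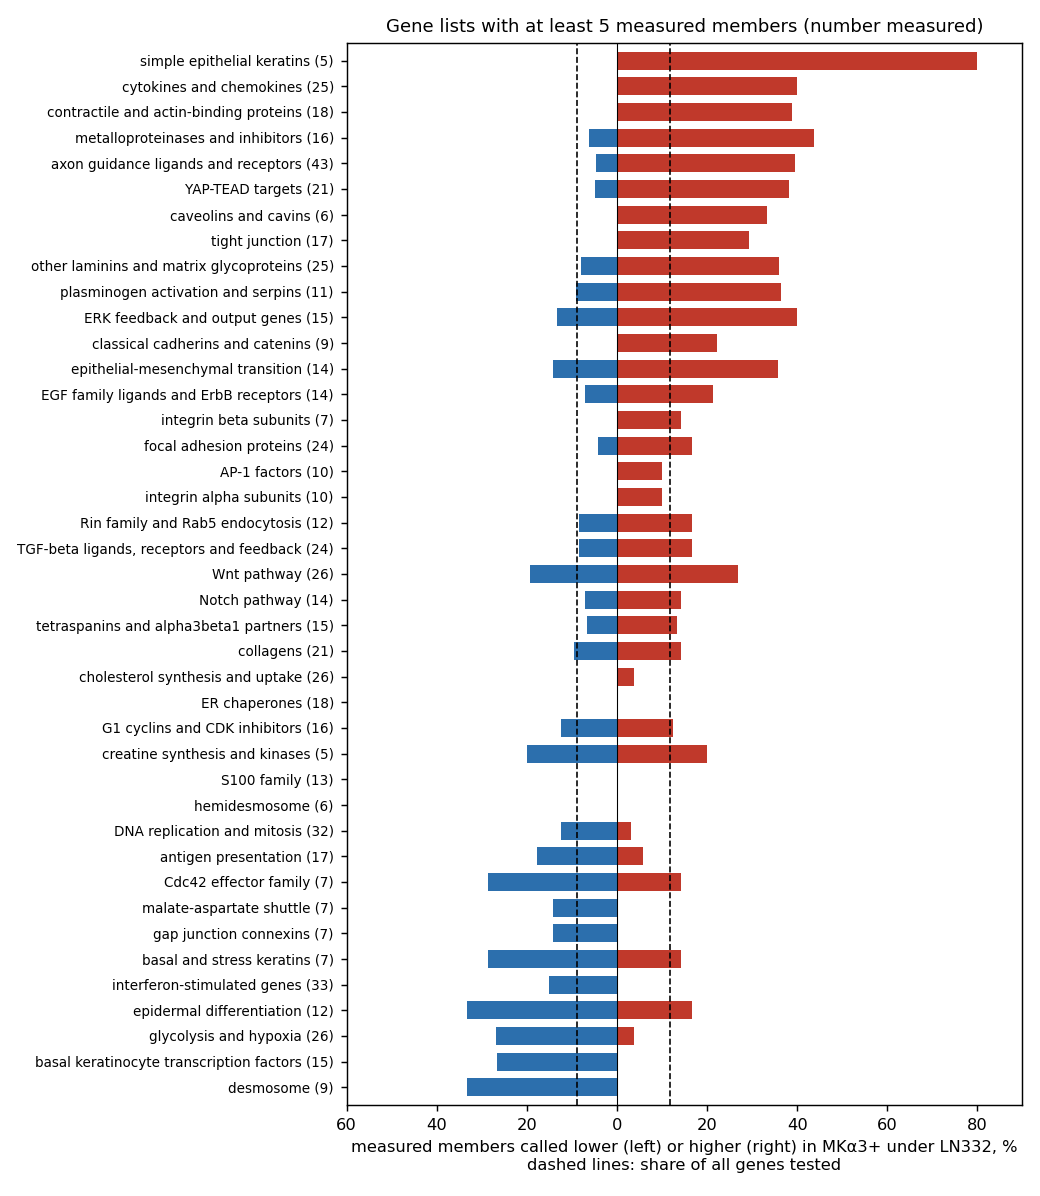
Percent of the measured members of each gene list called higher (right) or lower (left) in MKα3+ cells under LN332, for lists with at least 5 measured members, whose number is in brackets. Dashed lines are the shares of all genes, 11.7% higher and 8.92% lower. Simple epithelial keratins, cytokines and contractile genes lie to the right with 0 members lower, and desmosome genes and basal transcription factors to the left with 0 higher.

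Among genes called under LN332 with a mean log2 CPM of 1 or more, the 3 in each direction with the smallest interaction p were named. None passed adjustment. *Camk2g*, a calcium-dependent kinase, was at 97.7, 88.1, 90.2 and 90.8 CPM in MKα3+ and 55.6, 58.3, 57.9 and 60.6 CPM in MKα3− libraries given LN332. Its difference was 0.66 (SE 0.067) under LN332 and 0.30 (SE 0.066) in vehicle, an interaction of 0.36 (SE 0.094, unadjusted p = 0.00128 in limma-voom). *Pald1*, a phosphatase domain protein of endothelium, differed by 2.54 and 1.85, and *Shroom1*, an actin-binding protein, by 1.0 and 0.41, with unadjusted interaction p of 0.00457 and 0.00837. *Tnnt2*, the troponin T of heart muscle, was at 611, 466, 591 and 764 CPM in MKα3− and 471, 309, 338 and 379.7 CPM in MKα3+ libraries and differed by -0.70 under LN332 and -0.08 in vehicle, with an interaction of -0.62 (SE 0.20). Its libraries overlapped. *Foxq1*, a forkhead factor, and *Eif4e3*, a cap-binding protein, had larger deficits under LN332, -1.38 and -1.49, than in vehicle, -0.43 and -0.96. The adjusted interaction p of each of the 6 genes was 0.9999.

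Differences between the lines were not spread evenly over the genome. On chromosome 10, 23.3% of 658 genes were lower in MKα3+ cells and 7.90% higher, with a median log2 difference of -0.28. On chromosome 1, 19.1% of 808 genes were lower and 7.55% higher, with a median of -0.19. On chromosomes 4, 8 and X the balance was the other way, with 17.6%, 19.1% and 19.9% of genes higher and 7.21%, 5.6% and 7.26% lower. On chromosome 8 the excess lay in the first 40 Mb of GRCm38.p6, where the median was 0.61 over the first 66 genes (0 to 20 Mb) and 0.67 over the next 87 (20 to 40 Mb), and 53.0% and 54.0% of the genes were higher. On chromosome 4 the median was 0.37 between 20 and 40 Mb and 0.44 between 40 and 60 Mb. The same medians in vehicle were 0.56 and 0.64 on chromosome 8 and 0.44 and 0.45 on chromosome 4. When the median of the 20 Mb around each gene was subtracted 2575 genes were called in place of 2987. Whether these stretches come from copy number was not tested.

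**Figure D5:**
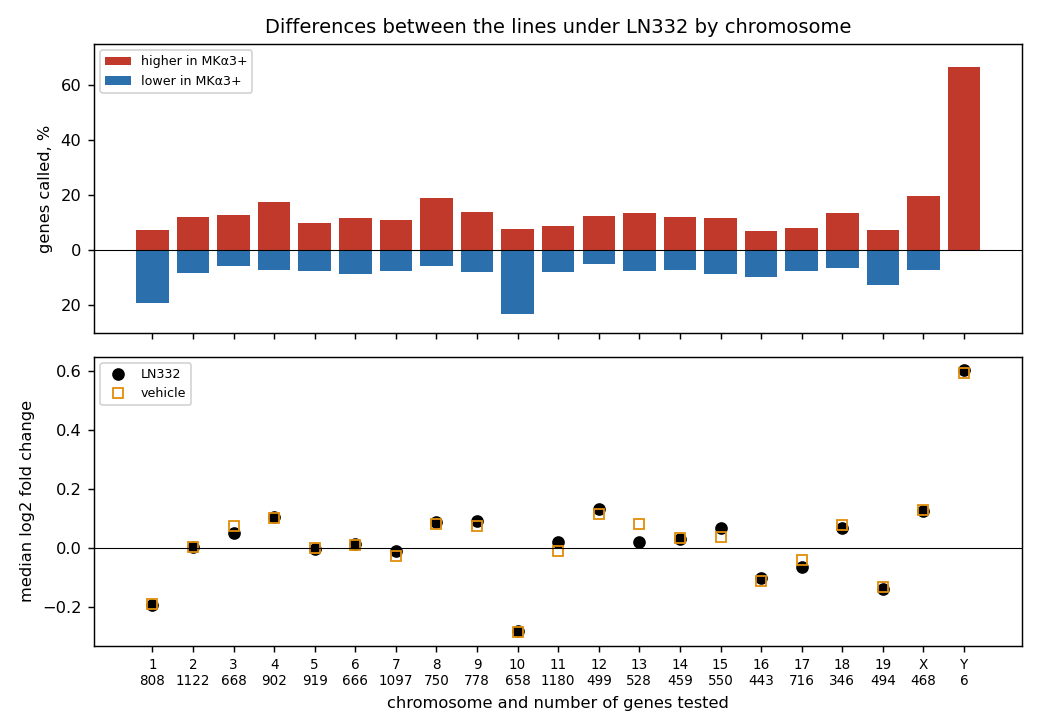
Top, percent of the genes of each chromosome called higher (up) or lower (down) in MKα3+ cells under LN332; bottom, median log2 fold change per chromosome under LN332 (circles) and in vehicle (squares), with the number of genes tested under each chromosome. Chromosomes 1 and 10 have negative medians in both, and the Y bar rests on 6 genes.

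On chromosome Y, 4 of 6 genes were higher in MKα3+ cells and 0 were lower. *Ddx3y*, an RNA helicase gene, was at a mean of 19 CPM in MKα3+ and 11.6 CPM in MKα3− libraries, a log2 difference of 0.70 (adjusted p = 5.91e-04). *Usp9y*, a deubiquitinase gene, was at 0.654 and 0.0421 CPM, a log2 difference of 3.84 (adjusted p = 7.85e-05).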

How the data were processed

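RNA was collected from MKα3+ and MKα3− keratinocytes given LN332 or vehicle, and 4 libraries of each were made with a poly(A)-selecting kit. The authors mapped the reads to mm10 with Rsubread and deposited raw counts per Entrez gene from featureCounts, with genes of low expression already removed. The setting of the counting for strand is not given in the sources used here, so reads where genes overlap on opposite strands cannot be assigned. Among the genes described this touches *Abhd15*, *Akip1*, *Cavin3*, *Tcfl5*, *Pcdh19*, *Igf2bp3*, *Nedd9*, *Krt5*, *Krt6a*, *Krt7*, *Krt8*, *Thbs1*, *Cd81*, *Cldn3*, *Col4a1*, *Col4a2*, *Fn1*, *Phlda1*, *Twist2*, *Has2*, *Pi15* and *Gm5148*.

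All 16 libraries were fitted in one limma-voom model (limma 3.58.1, edgeR 4.0.16, R 4.3.3) with a mean per group and TMM normalization, after removing genes that did not pass 0.5 CPM in 3 or more libraries (0 of 14474). The contrasts were MKα3+ minus MKα3− under LN332, the same in vehicle, and their difference, with Benjamini-Hochberg adjustment over all genes. Log2 differences (log2 fold changes of MKα3+ over MKα3−), standard errors (SE) and adjusted p in the text come from this fit, and CPM values are means or single libraries on the linear scale. Symbols were found for all but 284 genes, and positions of 14072 genes come from RefSeq in GRCm38.p6, the assembly behind mm10. Counts of LN332 replicates differed by more than sampling noise in every pair (chi-square over its degrees of freedom of 11.3 or more). Total counts of 21735708 to 29338370 per LN332 library set the precision.

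Members and gene lists were chosen with earlier results of these data known. Genes were named by rule. The first were the 12 largest fold changes in each direction where libraries did not overlap and the mean log2 CPM was 1 or more. The 6 largest differences of mean CPM in each direction and up to 3 members of each list in each direction were added. So were the 3 in each direction with the smallest interaction p among called genes with a mean log2 CPM of 1 or more. Of near-absent genes, members of lists that were not called, cell type markers and genes of chromosome Y, those named were chosen after their values were seen. Alternatives included DESeq2 1.42.0, edgeR's quasi-likelihood test, other normalizations and filters, a replicate block, quality weights, subsets of libraries, a larger minimum fold and a regional median, and the removal of both LN332 replicate 1 libraries was added after seeing the data. Scripts were tested on simulated data. Results of some genes are not reported here.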

Additional observations from a re-analysis of the deposited data

Results flagged for a closer look

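Of 230 groups of 4 libraries examined, 15 held a library whose gap to the nearest of the other 3 exceeded Dixon's 95% critical value for the range of the group, where chance alone gives about 1 in 20, or 11.5. Replicate 1 of MKα3+ cells was such a library for 5 measures and replicate 1 of MKα3− cells for 3.

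In MKα3+ replicate 1, *Itga3* was at 272 CPM (other libraries 311 to 314), *Itgb1* at 542 (779.7 to 823), *Trp63* at 30.4 (58.9 to 62.1) and *Padi3* at 5.38 (12.7 to 13), all below the other 3 libraries, and *Tcfl5* at 22.3 CPM was above them (18.3 to 18.9). In MKα3− replicate 1, *Cdh2* was low at 70.6 CPM (108 to 114), *Btc* was high at 0.621 CPM (0.0489 to 0.144), and *Rn45s* took 1.42% of counts (0.503% to 0.654%).

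In MKα3− replicate 3, *Lamb3* was at 1490.0 CPM (1007 to 1077) and *Thbs2* at 18.1 CPM (4.99 to 7.13). In MKα3− replicate 4, *Fn1* was at 16.7 CPM (5.93 to 6.57), *Cd81* at 9.34 CPM (6.68 to 6.98) and *Rplp1* at 2366 CPM (1390.1 to 1551). In MKα3+ replicate 4, *Itgb2* was at 14 CPM (6.05 to 7.32) and *Rpl41* at 929 CPM (1075 to 1103). The library is above the others of its group in each of these except *Rpl41*, and the direction between the lines was kept for all 14 genes when each library was left out in turn.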

How the results depend on the processing

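The line difference under LN332 held 2525 to 3393 called genes under the other tests, normalizations, filters, weights and subsets tried, against 2987, and 2590 (without MKα3+ replicate 4) to 3338 (without MKα3+ replicate 1) when each library was left out, with 1512 to 1836 higher and 1078 to 1502 lower. In vehicle the latter ranges were 2345 to 2683, 1389 to 1583 and 932 to 1100. A minimum log2 fold change of 1, which by construction leaves fewer genes, gave 1345 (901 higher, 444 lower) under LN332 and 1362 (899 and 463) in vehicle. The interaction had 0 genes under each other test, normalization, filter, block, weighting and left-out library, and was not fitted with the regional median, the larger minimum fold or 8 libraries alone. At 0.5 CPM or less against 10 CPM or more, 1 gene was near absent from MKα3− and 2 from MKα3+ cells, and the median of chromosome 16 was -0.0895 in place of -0.10 with at least 10 counts in every library.

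With a replicate block 3393 genes were called under LN332 (2964 shared), 3056 in vehicle and 0 in the interaction (517 at an unadjusted p under 0.05). Deviations of same-numbered LN332 libraries correlated at 0.547, 0.323, 0.256 and -0.0422, and 3 of 4 correlated best with their own number. The numbers were not taken to pair the libraries. *Col17a1*, not called in the main fit, was called with the block (-0.81, adjusted p of 0.00126), as it was without MKα3− replicate 1.

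Of 156 named genes called under LN332, 98 kept their call in every alternative and 0 changed sign. The outcome of some alternatives was fixed in advance. A minimum log2 fold change of 1 by construction loses every call under 1. Leaving out the filter on low counts could change no call, because that filter had removed 0 genes. Both also enter the numbers of alternatives given for single genes. Signs of uncalled genes near 0 did change. *Itgb4* was 0.0059 with at least 10 counts, 0.00031 with the block, 0.0053 with quality weights, 0.0063 with the regional median, 0.050 without both replicate 1 libraries and -0.16 to 0.20 with one library left out. *Cav1* was 0.0069 with quality weights. With one library left out *Cav1* ranged from -0.26 to 0.094 and *Krt18* from -0.064 to 0.27. The causes were not tested. Low counts limit the precision of genes near 1 CPM.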

Other observations

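In vehicle 498 genes were called between the lines that were not called under LN332. Among the 2178 genes called in both, the absolute difference was larger under LN332 for 1280 genes and larger in vehicle for 898, with median absolute values of 1.12 and 1.06. Both are descriptions, and no gene passed adjustment in the test of the difference.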
